A study of Mus musculus with 4 samples.

Results

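Short single-exon transcripts were selected from strand-specific total RNA-seq of mouse embryonic fibroblasts (MEF) that carry or lack Hmga2. The annotation behind the deposited table, UCSC known genes, holds many rows that are only as long as a small RNA: precursors of microRNA (miRNA), small nucleolar RNA (snoRNA), tRNA and short fragments of longer genes. Rows were chosen by 3 conditions: a Length below 200 bases, a Length equal to end minus start within 1 base, so that the row has a single exon, and a value above 0 RPKM in at least 1 of the 4 libraries. Of the 63759 rows of the table, 7612 had a Length below 200 and 7491 of these were single-exon. Among them 6346 were at 0 RPKM in every library and 1145 were above 0, and these 1145 are the members described here. The longest members had Lengths of 196, 197, 198 and 199 bases, and the shortest rows left out had 203 bases. At that edge, Snora74a (197 bases) was at 3.62, 7.18, 2.69 and 6.15 RPKM, while the 2 rows of 203 bases were at 10.5, 7.14, 10.2 and 6.14 RPKM and at 3.07, 3.53, 3.05 and 3.37 RPKM.

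The cells were MEF grown from C57BL/6 embryos of embryonic day 15.5, from the trunk left after head, limbs, tail and inner organs were removed, and were immortalized with SV40. The 4 groups had 1 library each. Hmga2+/+ Ctrl and Hmga2+/+ TGFB1 were wild type cells, and Hmga2-/- Ctrl and Hmga2-/- TGFB1 were knockout cells, whose genotype label reads Hmga-/-. All were kept overnight in low serum, after which the Ctrl cells received water and the TGFB1 cells 10 ng/ml of human recombinant TGFB1 for 24 h. Values are given below in this order: Hmga2+/+ Ctrl, Hmga2+/+ TGFB1, Hmga2-/- Ctrl, Hmga2-/- TGFB1. With 1 library per condition no difference has a replicate check, no test was run, and genotype cannot be told apart from other differences between the immortalized cultures. In bulk RNA, fewer cells that make a transcript and less of it per cell cannot be told apart.

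TGFB1 is a cytokine that signals through receptor kinases and SMAD proteins and turns fibroblasts into contractile, matrix-producing myofibroblasts. HMGA2 is a small chromatin protein that binds AT-rich DNA, and its mRNA is a classic target of the let-7 miRNA family. A miRNA is cut from a hairpin precursor, often one that lies in an intron or exon of a longer host transcript, and pairs with target mRNAs through its seed, bases 2 to 8. Most snoRNA of mammals are also released from introns of host genes. Box C/D snoRNA guide the methylation of ribosomal RNA and carry a TGATGA-like box C near the 5′ end and a CTGA box D near the 3′ end, whereas box H/ACA snoRNA guide the conversion of uridine to pseudouridine and end in ACA followed by a few bases.

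Mature miRNA sequences from RefSeq (GRCm38.p6) matched 537 of the 607 miRNA members and 76 of the 83 miRNA members with at least 40 reads over the 4 libraries. The first set is the let-7 family, shown because Hmga2 is its target and because its members share the seed GAGGUAG, which 5 members with at least 40 reads carry; among those members there were 114 distinct seeds, of which 3 were carried by more than 1 member. The second set holds miRNA whose rows carry the values described below. Capitals mark the seed.
let-7a-5p: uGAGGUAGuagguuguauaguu
let-7d-5p: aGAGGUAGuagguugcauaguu
let-7e-5p: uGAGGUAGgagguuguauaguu
let-7f-5p: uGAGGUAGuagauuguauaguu
miR-98-5p: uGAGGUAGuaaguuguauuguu
miR-29a-3p: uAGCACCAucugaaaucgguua
miR-34a-5p: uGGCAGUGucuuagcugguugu
miR-21a-5p: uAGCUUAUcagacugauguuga
miR-22-3p: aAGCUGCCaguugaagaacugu
miR-763: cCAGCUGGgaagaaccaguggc
miR-711: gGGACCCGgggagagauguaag
miR-16-5p: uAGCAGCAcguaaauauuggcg
miR-652-3p: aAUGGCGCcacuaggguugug
miR-218-5p: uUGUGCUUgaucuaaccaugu
miR-30c-5p: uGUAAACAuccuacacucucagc
miR-125b-5p: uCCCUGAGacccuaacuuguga

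For snoRNA, transcript sequences of GENCODE vM21 (GRCm38, the mm10 build) are shown for the 3 H/ACA members and the 3 C/D members of highest mean RPKM, and for Rnu73b. Capitals mark the letters searched: ACA within the last 8 bases, TGATGA within the first 25 bases and CTGA within the last 25 bases, all on the RNA strand. Snora7a lies at chr6:115807975-115808114 (minus), Snora65 at chr2:32963291-32963420 (plus) and Snora75 at chr1:86351169-86351301 (minus). Snord33 lies at chr7:45126864-45126947 (minus), Snord15b at chr7:99479563-99479707 (minus), Snord22 at chr19:8725866-8725991 (plus) and Rnu73b at chr3:86140618-86140688 (minus). The rows of the deposited table can be shorter or longer than the annotated RNA: that of Snord33 has 127 bases against the 84 shown, and that of Snora7a 128 against 140.
Snora7a: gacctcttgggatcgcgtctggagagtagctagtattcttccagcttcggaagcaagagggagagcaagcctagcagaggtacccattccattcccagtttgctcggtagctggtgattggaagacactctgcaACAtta
Snora65: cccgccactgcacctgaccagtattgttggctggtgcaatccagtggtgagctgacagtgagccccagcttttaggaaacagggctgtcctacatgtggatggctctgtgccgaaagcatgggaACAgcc
Snora75: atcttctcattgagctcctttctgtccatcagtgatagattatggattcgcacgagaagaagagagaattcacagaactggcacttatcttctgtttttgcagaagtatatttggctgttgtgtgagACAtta
Snord33: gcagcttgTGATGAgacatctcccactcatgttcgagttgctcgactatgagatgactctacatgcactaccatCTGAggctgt
Snord15b: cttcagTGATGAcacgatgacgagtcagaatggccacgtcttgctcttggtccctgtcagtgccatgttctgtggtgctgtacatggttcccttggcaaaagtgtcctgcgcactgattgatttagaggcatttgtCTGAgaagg
Snord22: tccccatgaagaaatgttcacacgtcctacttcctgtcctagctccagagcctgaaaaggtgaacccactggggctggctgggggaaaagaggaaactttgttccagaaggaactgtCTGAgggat
Rnu73b: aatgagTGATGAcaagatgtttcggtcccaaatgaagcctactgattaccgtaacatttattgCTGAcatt

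The letters follow the class names closely for H/ACA and less so for C/D. ACA was found in the last 8 bases of 31 of the 33 H/ACA members (93.9%), against 6 of the 61 C/D members (9.84%) and 368 of 2202 annotated miRNA genes (16.7%). Both TGATGA and CTGA were found in 36 of the 61 C/D members (59%) and in 0 of the 33 H/ACA members. Among all 99 annotated Snord genes, 69 (69.7%) held both, and among all miRNA genes 2 of 2202 (0.0908%) did. The letters of Snord22 did not include TGATGA in this window. Rnu73b, which the annotation names as a small nuclear RNA by its symbol and a snoRNA by its type, held both boxes.

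The libraries matched their genotype labels. The Hmga2 row was at 15.1, 41.7, 0 and 0 RPKM in the 4 libraries. Acta2, the smooth muscle actin that marks myofibroblasts, was at 15.9, 58.3, 48.2 and 165 RPKM, and Col1a1, a defining collagen gene of fibroblasts, at 325, 363, 272 and 363 RPKM. The depth was recovered from the smallest values, since each read adds a fixed step to a row of given Length. It came to 56140000, 57300000, 56610000 and 56950000 mapped reads. Members held 14430, 15416, 13169 and 15659 of these reads, 0.0257%, 0.0269%, 0.0233% and 0.0275% of the mapped reads. Intervals below are exact 95% intervals from these reads. They cover counting error only, and compare libraries, not conditions.

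Most members were barely read. Of the 1145 members, 687 had fewer than 10 reads over the 4 libraries together and 207 had 1 read, whereas 170 had at least 40. The 10 members with most reads held 50% of all reads on members, and the leading one, Mir5114, held 23.1%. Those 170 members had a median of 91 reads over the 4 libraries, against 2644 for the 36673 rows of the whole table with at least 40 reads, so a share of members past a fold threshold is read at a lower depth than its background. Between 343 and 393 members were at 0 RPKM in a given library. A row above 0 in only 1 library differs between libraries by the way it was chosen, so changes are described mainly for the 170 members.

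By the annotated gene that covers a row on its own strand, 607 members were miRNA, 61 were C/D snoRNA, 33 were H/ACA snoRNA, 7 were other snoRNA and 7 were scaRNA, the guides of Cajal bodies. Another 166 members were tRNA, 2 were snRNA, 184 lay in other genes and 78 in no gene. The share of short single-exon rows above 0 differed by class: 61 of 61 for C/D snoRNA, 33 of 34 for H/ACA snoRNA, 53.3% of 1138 miRNA rows, 41.9% of 396 tRNA rows, 13% of 1416 rows in other genes and 1.77% of 4409 rows in no gene. Of members with at least 40 reads, 83 were miRNA, 18 C/D, 21 H/ACA, 2 other snoRNA, 1 scaRNA, 9 tRNA, 32 in other genes and 4 in no gene. The 531 miRNA rows at 0 had a median GC content of 48.3%. The 524 with 1 to 39 reads had one of 53.2%, and the 83 with at least 40 reads one of 52.2%.

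These were total RNA libraries with 75-base reads and not small RNA libraries, so a read on a miRNA or snoRNA row can come from the mature RNA, its precursor or the host transcript, and these cannot be told apart. Of the 1145 members, 342 lay in a GENCODE exon of a gene that is not a small RNA, on the same strand. Another 474 lay inside such a gene or a longer row of the table but outside exons, called intronic here. The remaining 329 lay in neither. An exon of any annotated transcript of such a gene counted, so an exonic member need not be part of the main spliced RNA. An exonic member can share its reads with a host row, but not every exonic member has one. Among the 83 miRNA members with at least 40 reads, 46 were exonic, 31 intronic and 6 in neither. For 37 of the exonic ones with a host row in the table, the median ratio of member to host RPKM was 0.457, and 9 were above their host. For 30 intronic ones it was 0.192, and 5 were above their host. Among snoRNA members the ratio was alike in both places: 0.0986 for exonic and 0.111 for intronic C/D, and 0.0998 and 0.0711 for H/ACA. Whether a host's RPKM counts exons only is not settled.

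**Figure D1:**
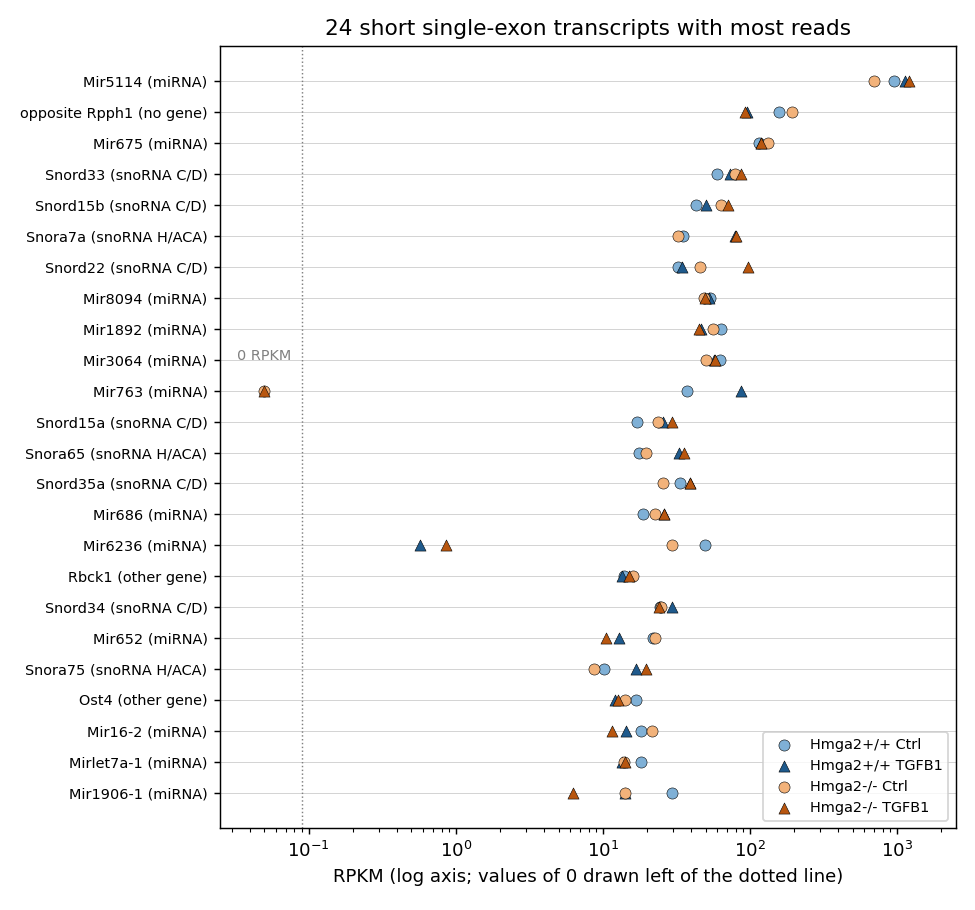
RPKM on a log axis for the 24 members with most reads over the 4 libraries, 1 point per library (circles Ctrl, triangles TGFB1, blue Hmga2+/+, orange Hmga2-/-), values of 0 drawn left of the dotted line. Mir5114 lies between 700 and 1199 RPKM, Mir763 is at 0 in both Hmga2-/- libraries, and Mir6236 is below 1 RPKM in both TGFB1 libraries.

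Counted over all members, changes of 1.5-fold or more were common in every comparison. With 0 RPKM set to 0.001, 348 members (30.4%) were higher and 394 (34.4%) lower under TGFB1 in Hmga2+/+ MEF, where 14.8% and 25.4% of the 46676 rows above 0 RPKM were. In Hmga2-/- MEF 343 (30%) were higher and 337 (29.4%) lower under TGFB1, against 16% and 24.8% of all rows. Between genotypes in Ctrl, 277 (24.2%) were higher and 400 (34.9%) lower in Hmga2-/- MEF, against 10.2% and 10.5%. Under TGFB1, 327 (28.6%) were higher and 346 (30.2%) lower in Hmga2-/- MEF, against 11.2% and 10.6%. These counts rest largely on rows with a few reads.

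Among the 170 members with at least 40 reads, 38 (22.4%) were at least 1.5-fold higher and 40 (23.5%) lower under TGFB1 in Hmga2+/+ MEF, where the background over all 36673 rows was 11.5% higher and 21.3% lower. In Hmga2-/- MEF 58 (34.1%) were higher and 26 (15.3%) lower, against 12.6% and 20.5%. The genotype comparison in Ctrl gave 18 higher (10.6%) and 45 lower (26.5%) in Hmga2-/- MEF, against 4.38% and 4.32%. That under TGFB1 gave 23 higher (13.5%) and 19 lower (11.2%), against 5.49% and 5.16%. The Hmga2-/- Ctrl library enters both the Hmga2-/- response and the genotype comparison in Ctrl, so a value low in that library alone counts in both.

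Class medians under TGFB1 were above 0 for snoRNA and tRNA and near 0 for miRNA. The median log2 change of H/ACA snoRNA was 0.57 in Hmga2+/+ MEF and 0.99 in Hmga2-/- MEF, that of C/D snoRNA 0.24 and 0.62, and that of tRNA 0.31 and 0.43. The median of miRNA was -0.08 and -0.04, close to the -0.09 and -0.06 of all rows with at least 40 reads. Members in other genes had medians of -0.07 and 0.21. With libraries rescaled by their median ratio the miRNA median was 0.01 in both genotypes and that of other genes in Hmga2+/+ MEF 0.01, so these signs depend on the scaling, whereas H/ACA stood at 0.65 and 1.04 and C/D at 0.33 and 0.67. The 4 members in no gene were all at least 1.5-fold lower in Hmga2+/+ MEF, with a median of -0.89, where 21.3% of all rows were lower.

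**Figure D2:**
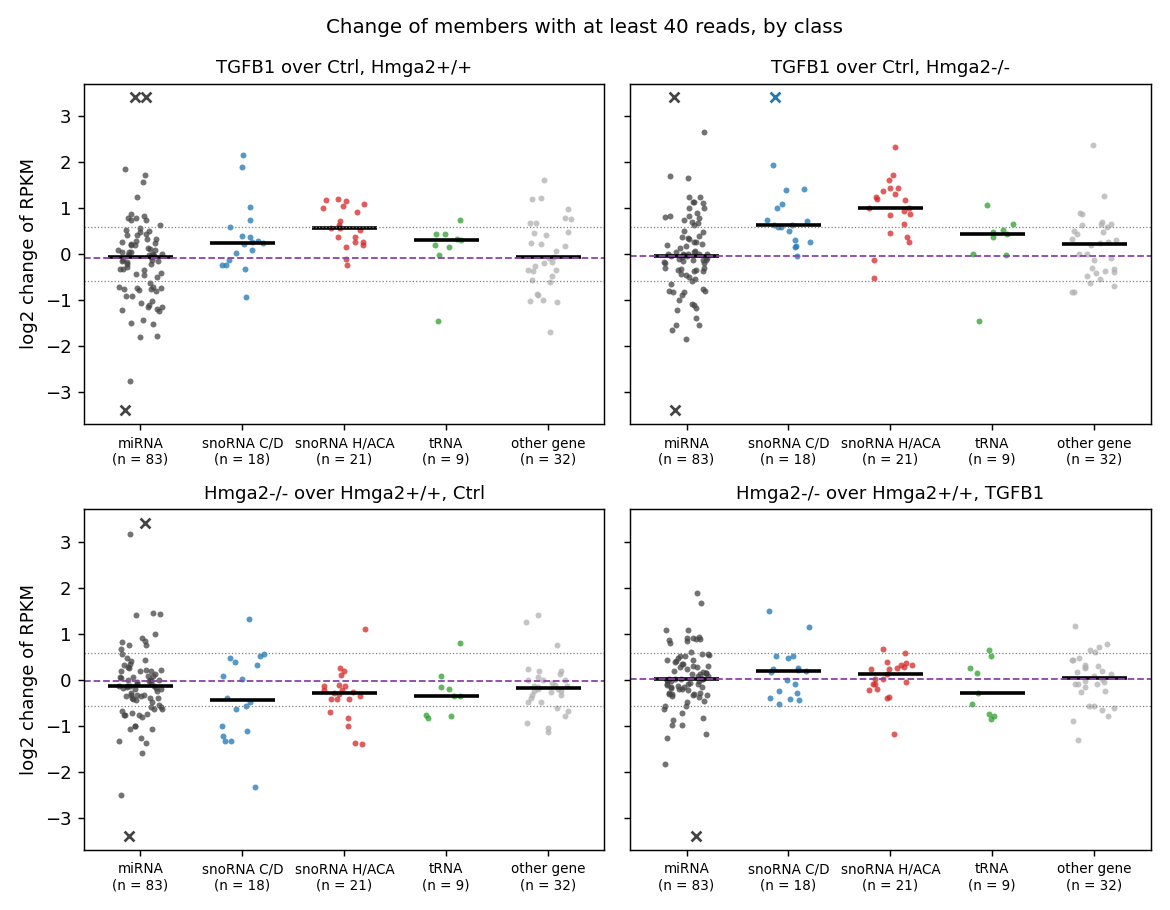
Log2 change of RPKM for members with at least 40 reads, 1 point per member, by class (n under each class name) in the 4 comparisons; scaRNA, other snoRNA and rows in no gene are not drawn. Black lines are class medians, the dashed line is the median of all rows with at least 40 reads, dotted lines mark 1.5-fold, and crosses are members beyond the axis. H/ACA snoRNA lie mostly above 0 in both upper panels, with medians of 0.57 and 0.99.

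H/ACA snoRNA were mostly higher under TGFB1. Of the 21 members with at least 40 reads, 9 were at least 1.5-fold higher and 0 lower under TGFB1 in Hmga2+/+ MEF. The background was 11.5% and 21.3% of all rows. In Hmga2-/- MEF 16 were higher and 0 lower, against 12.6% and 20.5%. In each genotype 19 of the 21 were above 0 on the log2 scale. Of all 36673 rows with at least 40 reads, 15654 were above 0 in Hmga2+/+ and 16850 in Hmga2-/- MEF. The summed reads of all 33 members were 864, 1520, 759 and 1575, a ratio per mapped read of 1.72 (1.58 to 1.88) in Hmga2+/+ and 2.06 (1.89 to 2.25) in Hmga2-/- MEF. Without Snora7a, the most abundant, the ratios were 1.51 (1.36 to 1.68) and 1.88 (1.69 to 2.09).

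Snora7a, in an annotated exon within the span of Rpl32, was at 35.3, 78.9, 32.4 and 80.1 RPKM. Both TGFB1 libraries were above both Ctrl libraries, 2.23-fold (1.92 to 2.60) in Hmga2+/+ and 2.47-fold (2.12 to 2.89) in Hmga2-/- MEF, while the Rpl32 row, which encodes a ribosomal protein, was 1.14-fold and 1.22-fold. Snora65, in Rpl12, another ribosomal protein gene, was at 17.5, 32.8, 19.8 and 35.6 RPKM. That was 1.87-fold (1.49 to 2.37) and 1.80-fold (1.45 to 2.24), with the host at 1.25-fold and 1.09-fold. Snora75, in the nucleolin gene Ncl, was at 10.2, 16.7, 8.76 and 19.7 RPKM, 1.63-fold (1.19 to 2.25) and 2.25-fold (1.63 to 3.13), and here the host was itself 2.14-fold and 1.96-fold. Snora74a, whose values stand above, was 1.98-fold (1.34 to 2.97) and 2.29-fold (1.47 to 3.64), with its host AC121821.1 at 2.32-fold and 2.33-fold. In all 4 the TGFB1 libraries of both genotypes lay above the Ctrl libraries of both. Snora23, in an intron of the importin gene Ipo7, was at 3.80, 5.63, 2.32 and 7.0 RPKM. It was 1.48-fold (0.973 to 2.28) in Hmga2+/+ and 3.02-fold (1.88 to 5.02) in Hmga2-/- MEF, with the host at 2.0-fold and 2.18-fold. Snora23 was named after its values were seen.

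C/D snoRNA held more reads and moved less. Of 18 members with at least 40 reads, 5 were at least 1.5-fold higher and 1 lower in Hmga2+/+ MEF, against 11.5% and 21.3% of all rows. In Hmga2-/- MEF 10 were higher and 0 lower, against 12.6% and 20.5%. Their summed reads over all 61 members were 1837, 2226, 2120 and 2978, a ratio of 1.19 (1.12 to 1.26) and 1.40 (1.32 to 1.48). Snord33, which lies in Rpl13a and guides rRNA methylation, was at 60.2, 73.0, 78.7 and 87.4 RPKM, 1.21-fold (1.07 to 1.38) and 1.11-fold (0.989 to 1.25) under TGFB1. Snord34 and Snord35a, of the same host, were at 24.7, 29.5, 24.7 and 24.0 RPKM and at 33.6, 39.1, 25.5 and 39.1 RPKM. Of these 3 members 0 reached 1.5-fold in Hmga2+/+ MEF, and Snord35a did in Hmga2-/- MEF, at 1.53-fold (1.22 to 1.93), with Rpl13a at 0.976-fold. Snord15b, in Rps3, was at 42.8, 50.1, 63.3 and 71.3 RPKM, with both Hmga2-/- libraries above both Hmga2+/+ libraries.

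Snord22, in an annotated exon within the span of the snoRNA host gene Snhg1, was at 32.3, 34.3, 45.9 and 97.2 RPKM. The Hmga2-/- TGFB1 library stood apart from the other 3. The row was 1.06-fold (0.883 to 1.28) under TGFB1 in Hmga2+/+ MEF and 2.12-fold (1.85 to 2.42) in Hmga2-/- MEF, although Snhg1 was 2.18-fold and 2.42-fold. Between genotypes under TGFB1 it was 2.83-fold (2.44 to 3.29), with the host at 1.17-fold. Snord47, the one member from the host Gas5, was at 8.63, 11.2, 5.52 and 8.23 RPKM, 1.30-fold (0.793 to 2.14) and 1.49-fold (0.819 to 2.77), intervals that include no change.

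Rnu73b, the C/D-like RNA in an intron of the ribosomal protein gene Rps3a1, was at 10.4, 26.4, 6.56 and 23.3 RPKM. Both TGFB1 libraries were above both Ctrl libraries, 2.53-fold (1.75 to 3.73) and 3.56-fold (2.28 to 5.72), against 1.22-fold and 1.30-fold for the host. AF357399, a snoRNA in an intron of Rps16, was at 2.87, 5.07, 1.71 and 7.36 RPKM, 1.76-fold (0.905 to 3.57) and 4.31-fold (2.05 to 10.1). AF357426, in Rian within the imprinted cluster on chromosome 12, was at 2.97, 3.44, 1.07 and 0.798 RPKM. It was 1.16-fold (0.479 to 2.85) in Hmga2+/+ and 0.745-fold (0.109 to 4.41) in Hmga2-/- MEF under TGFB1. Scarna10, in Ncapd2, was at 8.65, 5.24, 8.58 and 6.77 RPKM, with intervals that include no change in both genotypes. The minor spliceosome RNAs Rnu11 and Rnu12, which remove a rare class of introns, were at 1.5, 1.30, 1.82 and 1.64 RPKM and at 0.478, 0.117, 0.474 and 1.06 RPKM, at most 11 reads a library.

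Set against its host, the median H/ACA member was higher in Hmga2-/- MEF but about level in Hmga2+/+ MEF. For the 20 with a host row, the median log2 change was 0.56 against 0.37 for the hosts in Hmga2+/+, and 1.08 against 0.27 in Hmga2-/- MEF. Taking each host's change off its member, a step added after the data were seen, left medians of 0.01 and 0.62. For the 18 C/D members, the medians were 0.24 against 0.41 and 0.62 against 0.42, which left -0.20 and 0.16. Of H/ACA members, 5 and 11 of 20 differed from their host by 1.5-fold or more, and of C/D members 9 and 4 of 18. The H/ACA median in Hmga2+/+ MEF joined unlike groups. The 12 exonic members were at 0.807 against 0.355 for their hosts, with 5 off by 1.5-fold. The 8 intronic members were at 0.306 against 0.39, with 0 off.

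**Figure D3:**
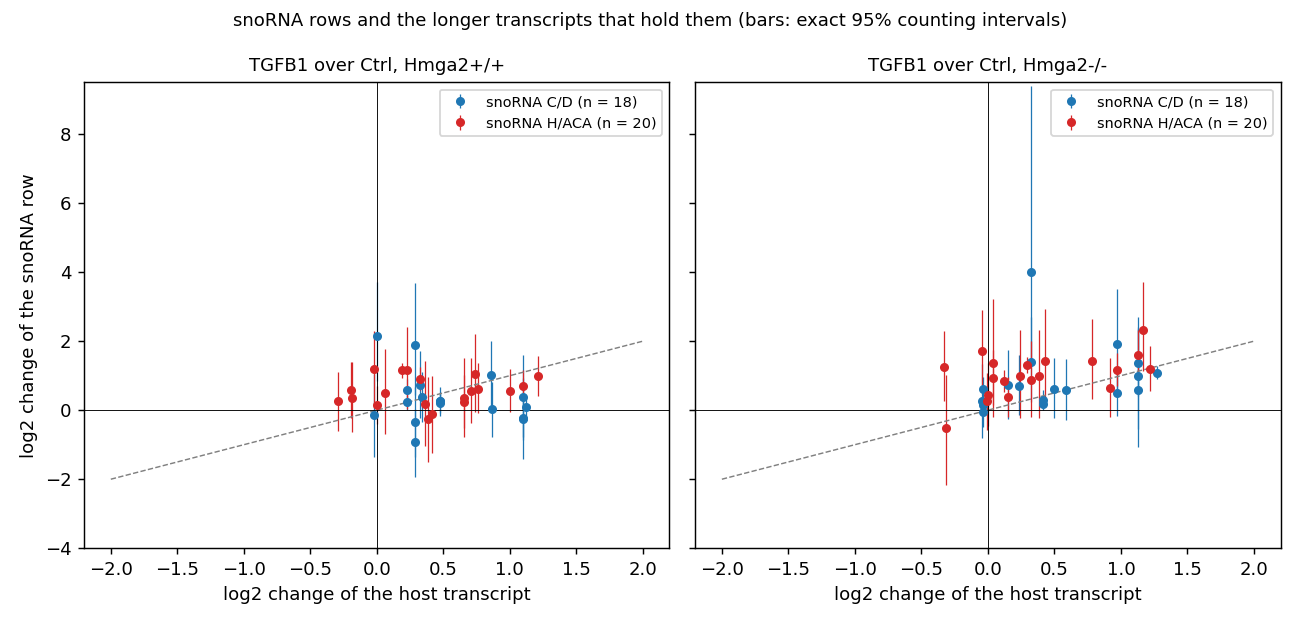
Log2 change under TGFB1 of each snoRNA row (vertical axis, bars are exact 95% counting intervals) against that of its host transcript (horizontal axis), for 18 C/D and 20 H/ACA members with a host row, by genotype. The dashed line marks equal change. In Hmga2-/- MEF 11 of the 20 H/ACA members lie at least 1.5-fold off their host.

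miRNA members changed in both directions. In Hmga2+/+ MEF 13 of 83 were at least 1.5-fold higher and 26 lower under TGFB1, against 11.5% and 21.3% of all rows. In Hmga2-/- MEF 20 were higher and 19 lower, against 12.6% and 20.5%. Together the 607 miRNA members had 8847, 9083, 7398 and 8574 reads. Without Mir5114 they had 5656, 5192, 5021 and 4477, a ratio under TGFB1 of 0.899 (0.866 to 0.934) and 0.886 (0.851 to 0.923). Of the 67 with a host row, 20 differed from it by 1.5-fold or more in the response of Hmga2+/+ MEF and 23 in that of Hmga2-/- MEF.

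The most abundant miRNA rows lay in exons of highly expressed transcripts. Mir5114, at chr19:44303171-44303231 in an exon of Scd2, a desaturase gene of fatty acid synthesis, was at 947, 1132, 700 and 1199 RPKM. It was 1.19-fold (1.14 to 1.25) and 1.71-fold (1.63 to 1.80) under TGFB1, and Scd2 was at 216, 233, 152 and 206 RPKM, 1.08-fold and 1.35-fold. The Hmga2-/- Ctrl library was the lowest for both. Mir675, cut from the imprinted growth-regulating transcript H19, was at 115, 118, 132 and 120 RPKM and differed little between libraries, as did H19 at 431, 473, 459 and 446 RPKM. Mir3064, in the RNA helicase gene Ddx5, was at 62.9, 56.9, 50.05 and 57.5 RPKM.

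Mir763 followed the targeted gene. It lies in an intron of Hmga2 at chr10:120447991-120448110 on the minus strand, and was at 37.1, 87.0, 0 and 0 RPKM, from 248, 593, 0 and 0 reads. In Hmga2+/+ MEF it was 2.34-fold (2.02 to 2.73) under TGFB1, and Hmga2 was 2.76-fold. Against the floor of 3 reads in a library, it was at least 83.4-fold lower in Hmga2-/- MEF in Ctrl and at least 196-fold lower under TGFB1. Whether its reads were mature miR-763 or unspliced Hmga2 RNA cannot be told apart.

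No shared response of the let-7 family was seen in its few rows with reads. Of its 12 rows 11 were members and 5 had at least 40 reads, which are the 5 printed first above. In Hmga2+/+ MEF 0 were at least 1.5-fold higher and 1 lower under TGFB1, against 11.5% and 21.3% of all rows. In Hmga2-/- MEF 0 were higher and 0 lower, against 12.6% and 20.5%. With 5 rows, these counts cannot be told from the background. Mirlet7a-1 was at 18.2, 13.5, 13.9 and 14.2 RPKM, Mirlet7f-1 at 9.11, 11.3, 9.43 and 9.18 RPKM, and Mir98 at 3.83, 4.08, 3.47 and 4.43 RPKM. The exception was Mirlet7d, at 5.41, 1.54, 3.29 and 3.27 RPKM, 0.284-fold (0.119 to 0.612) in Hmga2+/+ and 0.994-fold (0.498 to 1.98) in Hmga2-/- MEF. Mirlet7a-1, Mirlet7f-1 and Mirlet7d lie within chr13:48536012-48538272 and together had 171, 138, 139 and 140 reads. Their sum was 0.791-fold (0.627 to 0.995) and 1.00-fold (0.786 to 1.28), and the Hmga2+/+ Ctrl library was the highest. Mirlet7e was at 4.84, 3.42, 1.92 and 2.48 RPKM, 0.397-fold (0.170 to 0.855) in Hmga2-/- against Hmga2+/+ Ctrl.

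Of a list of 29 rows of miRNA known from fibroblasts and fibrosis, 20 were members and 4 had at least 40 reads, of which 3 were at least 1.5-fold higher in each genotype and 0 lower, where 11.5% and 12.6% of all rows with at least 40 reads were higher. Listed members with fewer reads went in both directions in Hmga2+/+ MEF. Lower under TGFB1 were, for example, Mir199a-1 with 14, 1, 2 and 1 reads, 0.0700-fold (0.00166 to 0.460), Mir351 with 9, 1, 3 and 4, and Mir145a with 7, 1, 7 and 5. Mir29c, with 1, 3, 1 and 9 reads, and Mir23a, with 2, 3, 0 and 3, were higher. Mir29a, a miRNA known to target collagen mRNAs, was at 1.84, 6.62, 1.62 and 5.25 RPKM. Both TGFB1 libraries were above both Ctrl libraries, 3.59-fold (1.68 to 8.54) and 3.23-fold (1.42 to 8.26). Mir34a, a p53 target, was at 0.176, 3.11, 1.57 and 2.78 RPKM, from 1, 18, 9 and 16 reads. It was 17.7-fold (2.78 to 735) in Hmga2+/+ MEF, against 1 read in Ctrl, and 1.77-fold (0.735 to 4.54) in Hmga2-/- MEF. Mir22 was at 4.93, 7.61, 5.64 and 6.73 RPKM, 1.55-fold (0.923 to 2.63) and 1.19-fold (0.714 to 2.01). Mir21a, a widely studied profibrotic miRNA in the Vmp1 transcripts, was at 2.54, 3.64, 2.13 and 3.28 RPKM, 1.43-fold (0.671 to 3.15) and 1.54-fold (0.679 to 3.63), and Vmp1 was 1.96-fold and 1.85-fold. At 11 to 19 reads a library, a change of this size in Mir21a was not detectable. The Mir17 cluster, a growth-promoting group of miRNA, had few reads, 5, 11, 1 and 16 over its 4 members. Its sum was 2.16-fold (0.69 to 7.91) in Hmga2+/+ MEF. In Hmga2-/- MEF it was 15.9-fold (2.47 to 667), against 1 read in Ctrl.

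**Figure D4:**
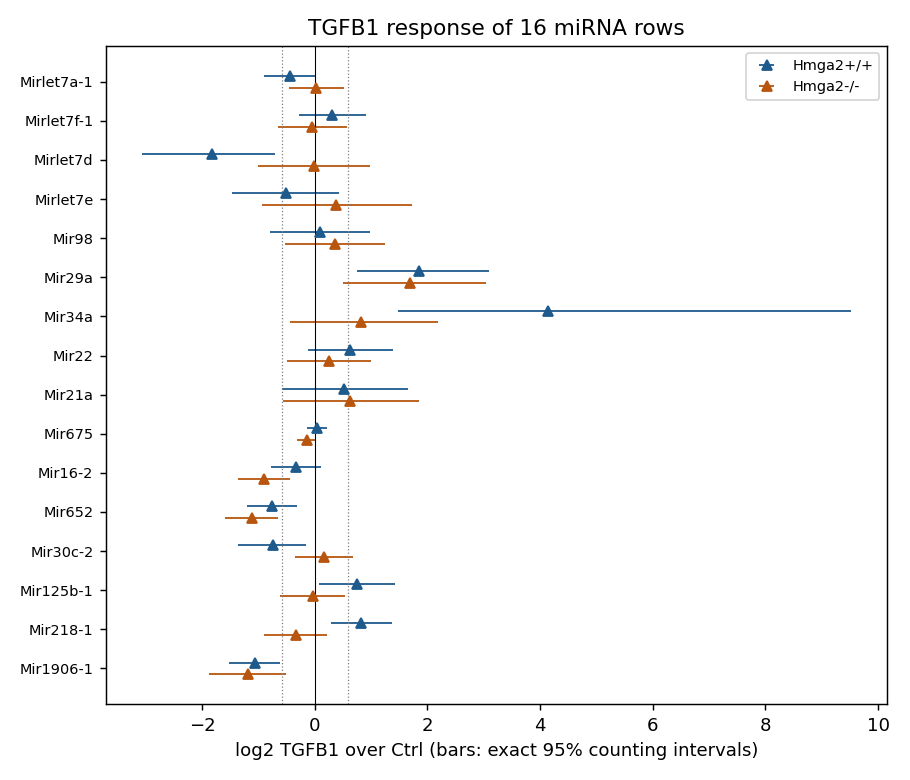
Log2 change under TGFB1 with exact 95% counting intervals for 16 miRNA rows, blue Hmga2+/+ and orange Hmga2-/-, with dotted lines at 1.5-fold. Mir29a lies to the right of 0 and Mir652 and Mir1906-1 to the left in both genotypes, and the interval of Mir34a in Hmga2+/+ reaches 735-fold because the Ctrl library had 1 read.

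Of the 11 miRNA rows at least 1.5-fold lower under TGFB1 in both genotypes, some shared the direction of their host. Mir652, in an intron of Tmem164, was at 21.9, 13.0, 22.8 and 10.5 RPKM, 0.593-fold (0.436 to 0.801) and 0.461-fold (0.332 to 0.635), with the host at 0.866-fold and 0.701-fold. Mir335, in the imprinted gene Mest, was at 3.67, 0.540, 5.83 and 1.99 RPKM, and Mest was 0.440-fold and 0.384-fold. Mir26b, in Ctdsp1, was at 8.27, 2.91, 7.99 and 3.76 RPKM, with the host at 0.537-fold and 0.519-fold. In Mir652, Mir335 and Mir26b both TGFB1 libraries lay below both Ctrl libraries. Mir335 and Mir26b were named after their values were seen.

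Other miRNA rows differed in 1 genotype or in 1 library. Mir16-2, in an intron of the condensin gene Smc4, was at 18.2, 14.5, 21.6 and 11.6 RPKM, 0.796-fold (0.583 to 1.08) in Hmga2+/+ and 0.536-fold (0.387 to 0.736) in Hmga2-/- MEF. Mir218-1, in an intron of the guidance ligand gene Slit2, was at 7.68, 13.6, 10.4 and 8.22 RPKM, 1.77-fold (1.23 to 2.59) in Hmga2+/+ and 0.792-fold (0.537 to 1.16) in Hmga2-/- MEF, while Slit2 was 2.66-fold and 2.34-fold. Mir30c-2 was at 13.7, 8.20, 13.4 and 15.0 RPKM, lowest in the Hmga2+/+ TGFB1 library. Mir125b-1 was at 7.26, 12.2, 12.3 and 12.02 RPKM, lowest in the Hmga2+/+ Ctrl library. Mir6935, in an exon of the actin gene Actg1, was at 10.7, 11.4, 19.3 and 11.4 RPKM, highest in the Hmga2-/- Ctrl library. Mir1903, in the semaphorin receptor gene Nrp1, was at 12.9, 6.85, 9.61 and 8.45 RPKM, and Mir1893, in Epc1, was at 12.2, 7.02, 7.54 and 7.92 RPKM, with the Hmga2+/+ Ctrl library highest for both. A difference between the genotypes in the response of these rows was not tested.

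Mir711 and Mir6236 showed ratios far from 1 in both genotypes. Mir711, named after its values were seen, lies in an intron of Col7a1, the type VII collagen gene, at chr9:108969922-108970003, and was at 0, 2.59, 0.218 and 8.24 RPKM, from 0, 12, 1 and 38 reads. Against the floor of 3 reads it was at least 3.92-fold higher under TGFB1 in Hmga2+/+ MEF, and in Hmga2-/- MEF it was 37.8-fold (6.38 to 1531) with 1 read in Ctrl. Col7a1 itself was at 0.201, 2.11, 0.189 and 3.30 RPKM, 10.5-fold and 17.5-fold. Mir6236, at chr9:110281287-110281409 on the plus strand, was at 49.6, 0.572, 29.4 and 0.864 RPKM, from 340, 4, 203 and 6 reads. It was 0.0115-fold (0.00312 to 0.0298) and 0.0294-fold (0.0107 to 0.0651) under TGFB1. Rows at other loci, looked up after the values were seen, moved alike: Lars2 was at 136, 5.07, 66.5 and 5.04 RPKM and Gm15564 at 185, 3.98, 75.2 and 2.76 RPKM. The Gm26917 row, which lies over a ribosomal RNA precursor locus on chromosome 17, was at 2818, 2560, 2206 and 2572 RPKM, and the part of ribosomal RNA reads in Mir6236 was not tested.

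The summed miRNA rows of the imprinted cluster on chromosome 12 were lower both under TGFB1 and in Hmga2-/- MEF. Mir1906-1, in an exon of the long noncoding RNA Meg3, was at 29.5, 14.1, 14.1 and 6.22 RPKM. It was 0.479-fold (0.349 to 0.650) and 0.442-fold (0.272 to 0.70) under TGFB1, and 0.477-fold (0.347 to 0.649) and 0.440-fold (0.272 to 0.696) in Hmga2-/- against Hmga2+/+ MEF. Meg3 was at 14.9, 8.11, 7.24 and 3.59 RPKM. The 38 miRNA members from Meg3 to Mirg, within chr12:109544541-109743795, had 214, 98, 102 and 49 reads, a sum taken after the values were seen. Without Mir1906-1 the other 37 had 83, 34, 39 and 21 reads. That was 0.401-fold (0.261 to 0.605) and 0.535-fold (0.299 to 0.932) under TGFB1, and 0.466-fold (0.310 to 0.690) and 0.621-fold (0.343 to 1.10) between genotypes, the last with an interval that includes no change. The Hmga2+/+ Ctrl library was the highest and the Hmga2-/- TGFB1 library the lowest in each of these sums.

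tRNA rows are named by an amino acid letter and an anticodon. Of the 166 members 9 had at least 40 reads, and all 166 together had 475, 582, 429 and 517 reads, a ratio under TGFB1 of 1.20 (1.06 to 1.36) in Hmga2+/+ and 1.20 (1.05 to 1.36) in Hmga2-/- MEF. The cysteine tRNA n-TCgca51 was at 17.6, 22.1, 15.7 and 15.3 RPKM. The tryptophan tRNA n-TWcca8 was at 9.78, 16.2, 5.72 and 8.90 RPKM, 1.66-fold (1.10 to 2.53) and 1.56-fold (0.897 to 2.75) under TGFB1, and lower in Hmga2-/- than in Hmga2+/+ MEF in both treatments, 0.585-fold (0.333 to 1.00) in Ctrl and 0.549-fold (0.355 to 0.836) under TGFB1. The glycine tRNA n-TGacc1 was at 8.30, 10.3, 8.71 and 11.3 RPKM, with intervals that include no change. Reads of tRNA precursors and of mature tRNA cannot be told apart.

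Among members in no gene, one row held most reads. It lies at chr14:50807447-50807553 on the plus strand, opposite Rpph1, the RNA of the tRNA-processing enzyme RNase P, whose gene spans chr14:50807449-50807767 on the minus strand. The row was at 157, 94.8, 192 and 92.1 RPKM, 0.604-fold (0.543 to 0.670) and 0.480-fold (0.433 to 0.532) under TGFB1. Both TGFB1 libraries were below both Ctrl libraries. Rpph1 itself was at 1719, 1415, 2702 and 1054 RPKM, so this row stood at 9.14%, 6.70%, 7.10% and 8.74% of its level. Another plus-strand row opposite Rpph1, at chr14:50807575-50807771, stood at only 0.111%, 0.0503%, 0.0901% and 0.119% of the Rpph1 level. Reads copied from the wrong strand of Rpph1 and a true antisense RNA cannot be told apart here. The row at chr9:63757923-63758111 was at 4.26, 2.41, 3.48 and 3.18 RPKM, and that at chr7:30136484-30136515 at 20.7, 10.7, 9.69 and 10.8 RPKM, highest in the Hmga2+/+ Ctrl library.

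Of the 184 members in other genes, 143 were exonic and 41 intronic. Of the 32 with at least 40 reads, 8 were at least 1.5-fold higher and 7 lower under TGFB1 in Hmga2+/+ MEF. The background was 11.5% and 21.3% of all rows. In Hmga2-/- MEF 8 were higher and 4 lower, against 12.6% and 20.5%. The fragment of Srpk1, a kinase of splicing factors, was 23 bases long and at 34.8, 46.3, 29.2 and 43.5 RPKM, 1.33-fold (0.889 to 2.0) and 1.49-fold (0.972 to 2.31). That of Rbck1, a ubiquitin ligase subunit, was at 14.0, 13.5, 16.02 and 15.0 RPKM, and that of Ost4, a subunit of the oligosaccharyltransferase, at 16.7, 12.05, 14.1 and 12.7 RPKM. The Zmynd11 fragment was at 6.88, 3.32, 4.88 and 3.77 RPKM, 0.482-fold (0.303 to 0.752) in Hmga2+/+ and 0.773-fold (0.482 to 1.23) in Hmga2-/- MEF.

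The responses of the 2 genotypes come from separate libraries. Of the 170 members, 27 were at least 1.5-fold higher under TGFB1 in both genotypes and 15 lower in both, against 8.95% and 16% of all rows with at least 40 reads. The 27 included 8 H/ACA, 4 C/D and 2 other snoRNA, 7 miRNA, 1 tRNA and 5 in other genes. The 15 included 11 miRNA, 1 tRNA, 1 in another gene and 2 in no gene, and 0 snoRNA. The 2 in no gene both lay opposite Rpph1. On the log2 scale 65 members were above 0 in both genotypes, 44 below 0 in both and 60 on opposite sides, with Mir763 at 0 RPKM in both Hmga2-/- libraries. The same split by sign was not computed over all rows. The response of Hmga2-/- MEF minus that of Hmga2+/+ MEF had a median of 0.39 log2 for H/ACA, 0.50 for C/D, 0.10 for miRNA, 0.05 for tRNA and 0.03 for all rows. For C/D members with at least 200 reads the median was -0.09, so this sign rests on C/D members with few reads.

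**Figure D5:**
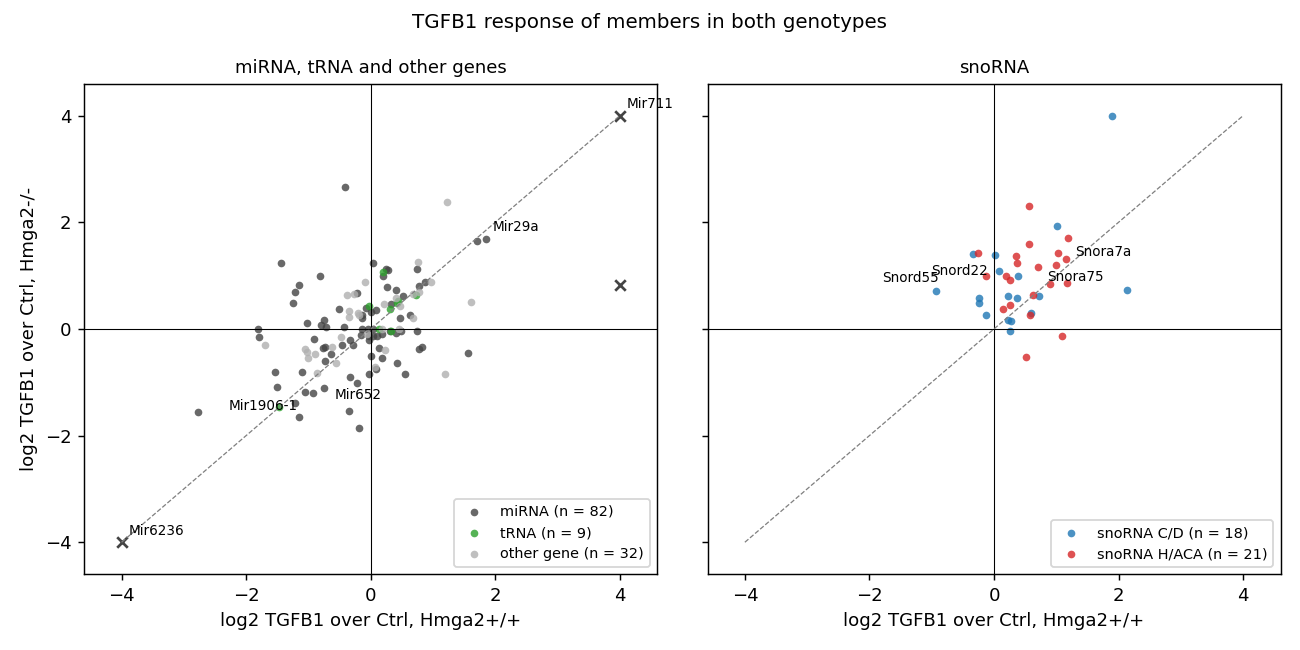
Log2 change under TGFB1 in Hmga2-/- MEF (vertical) against Hmga2+/+ MEF (horizontal), 1 point per member with at least 40 reads, miRNA, tRNA and other genes on the left and snoRNA on the right. The dashed line marks equal change and crosses are members beyond the axis. Mir763, at 0 in both Hmga2-/- libraries, is not drawn. Most snoRNA points lie above 0 on both axes, and miRNA points fall in all 4 quadrants.

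Between genotypes, short transcripts were lower more often than higher in Hmga2-/- Ctrl. The median log2 difference of Hmga2-/- from Hmga2+/+ MEF in Ctrl was -0.45 for C/D, -0.29 for H/ACA, -0.35 for tRNA, -0.14 for miRNA and -0.02 for all rows with at least 40 reads. By count, 5 of 21 H/ACA members were at least 1.5-fold lower and 1 higher. Of 18 C/D members 7 were lower and 1 higher, and of 83 miRNA 21 were lower and 12 higher. Over all rows with at least 40 reads, 4.32% were lower and 4.38% higher. For C/D the sign turned with abundance: the 6 members with at least 200 reads had a median of 0.43, led by Snord15b at 1.48-fold (1.29 to 1.70) and Snord22 at 1.42-fold (1.19 to 1.69). The H/ACA members summed to 0.871-fold (0.789 to 0.962) in Ctrl, whereas the C/D members summed to 1.14-fold (1.07 to 1.22). Under TGFB1 the medians were 0.18 for C/D, 0.12 for H/ACA, 0.01 for miRNA and -0.30 for tRNA. The H/ACA sum was then 1.04-fold (0.971 to 1.12) and the C/D sum 1.35-fold (1.27 to 1.42).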

How the data were processed

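Per the labels and the paper's methods, the authors extracted total RNA, made stranded libraries, sequenced single reads, used Trimmomatic for trimming and HISAT2 2.1.0 for alignment to mm10, and made RPKM with HOMER over UCSC known genes. The deposited values are RPKM, with 1 column per condition. The file header names exons as the counted feature and the methods name genes, and pooling of duplicates is not stated. Length is deposited in bases by the authors and is 1 base under the 1-based span.

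Members, gene lists and alternatives were chosen with earlier results of these data known. Rows were classed by the GENCODE vM21 gene covering at least 50% of them on the same strand. Reads were recovered from RPKM, Length and depth, and 100% of the low nonzero values tested lay within 0.1 of a whole read. Ratios carry exact (Clopper-Pearson) 95% intervals, and 0 RPKM was set to 0.001 for counts of changes. A longer transcript of the table that contains a member on its strand is its host.

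Named members are the 3 of highest mean RPKM per class, the 3 most increased and 3 most decreased in a comparison with at least 30 reads in both of its libraries, and fixed lists: let-7, fibroblast miRNA, the Mir17 cluster, snoRNA of Gas5, Snhg1 and Rpl13a, minor spliceosome and processing RNA, polymerase III and nucleolar RNA (0 rows matched) and imprinted clusters (6 members, of which Mir675 had at least 40 reads). Not every such member is printed, and 1 member with opposite responses in the 2 genotypes is not reported here. No count test was run, since no condition has replicates. The steps were tested on simulated data. Alternatives changed the value given to 0, the filter on reads, the scaling, the fold, the class rule and the treatment of exonic rows. Python 3.11.15, numpy 2.4.6, pandas 2.3.3, scipy 1.17.1 and matplotlib 3.10.9 were used.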

Additional observations from a re-analysis of the deposited data

Results flagged for a closer look

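In 6 of the 170 members with at least 40 reads the response to TGFB1 was at least 1.5-fold in opposite directions in the 2 genotypes. In 5 it was lower in Hmga2+/+ and higher in Hmga2-/- MEF, and in 1 the reverse. The log2 responses of the 5 follow. These differences were not tested, since each value compares 1 library with 1 library. The share of all rows with such opposite responses was not computed, so the count has no background beside it. Mir6925 was at -0.82 in Hmga2+/+ and 0.99 in Hmga2-/- MEF, Mir1902 at -1.15 and 0.83, Mir5122 at -1.22 and 0.69, and Mir7090 at -1.44 and 1.24. Snord55 was at -0.93 and 0.71.

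The reads behind these values were few. Mir1902, in an exon of the kinase gene Hipk3, had 48, 22, 23 and 41 reads in Hmga2+/+ Ctrl, Hmga2+/+ TGFB1, Hmga2-/- Ctrl and Hmga2-/- TGFB1. Its exact 95% counting intervals excluded a ratio of 1 in both genotypes, 0.258 to 0.758 and 1.04 to 3.09, while Hipk3 was 0.854-fold and 0.916-fold. Mir7090, in an intron of Ctnnb1, had 24, 9, 8 and 19 reads, and its interval in Hmga2-/- MEF was 0.987 to 6.23. For Mir6925, Mir5122 and Snord55, both intervals included 1.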

How the results depend on the processing

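No paired analysis was possible because each condition has 1 library, so the groups share fewer than 2 replicate numbers. Counts of members past 1.5-fold depended on how low rows were treated. Adding a pseudocount of 1 RPKM gave 155 higher and 190 lower under TGFB1 in Hmga2+/+ MEF, 167 and 135 in Hmga2-/- MEF, 113 and 178 for Hmga2-/- over Hmga2+/+ in Ctrl, and 127 and 129 under TGFB1. Keeping only the 170 members with at least 40 reads gave 38 and 40 (22.4% and 23.5%) and 58 and 26 (34.1% and 15.3%) for the 2 responses. The genotype comparisons then gave 18 and 45 (10.6% and 26.5%) in Ctrl and 23 and 19 (13.5% and 11.2%) under TGFB1. With values under 1 read set to 1 read, 226 were lower in Hmga2-/- than in Hmga2+/+ MEF under TGFB1. Counts with the pseudocount or the 1-read value are of all 1145 members, and their share over all rows was not computed. Of 48 such alternatives 31 left the count within 1.5 times.

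For class medians 106 of 120 alternatives moved the median by less than its counting spread. With at least 200 reads, the log2 median under TGFB1 in Hmga2+/+ MEF was -0.21 for miRNA, 0.91 for H/ACA and 0.17 for other genes, that of C/D in Hmga2-/- MEF was 0.24, and in Ctrl Hmga2-/- over Hmga2+/+ was -0.33 for miRNA and 0.43 for C/D. The genotype difference of C/D responses was then -0.09. With at least 10 reads, other genes were at -0.01 in Hmga2-/- MEF, and miRNA at -0.01 between genotypes in Ctrl. Without exonic rows, H/ACA were at 0.36 in Hmga2+/+ MEF and miRNA at 0.12 between genotypes under TGFB1. Taking off the host's change, added after seeing the data, left 0.01 for H/ACA and -0.20 for C/D in Hmga2+/+, and 0.62 and 0.16 in Hmga2-/- MEF. The cause of these shifts was not tested. Scaling by the median ratio turned the sign of 15 of 328 log2 changes of named members, all at most 0.06 in size, and the pseudocount turned 0. It also turned the medians of miRNA under TGFB1 to 0.01 in both genotypes, and that of other genes in Hmga2+/+ MEF to 0.01. A median of tRNA at 200 reads and of other genes without exonic rows could not be given, with fewer than 3 members.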

Other observations

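Of 8 genes for the core proteins that bind snoRNA, 7 were at least 1.5-fold higher under TGFB1 in Hmga2+/+ MEF and 6 in Hmga2-/- MEF, against 11.5% and 12.6% of all rows with at least 40 reads. This set was chosen after the snoRNA values were seen, and its values come from the same 4 libraries, so it is not independent of them. Of the H/ACA core proteins, Dkc1, the pseudouridine synthase dyskerin, was at 12.6, 30.5, 15.4 and 32.9 RPKM in Hmga2+/+ Ctrl, Hmga2+/+ TGFB1, Hmga2-/- Ctrl and Hmga2-/- TGFB1. Nhp2 was at 8.13, 18.96, 11.1 and 21.5 RPKM, Gar1 at 10.2, 19.6, 11.1 and 20.7 RPKM, and Nop10 at 10.8, 13.5, 9.61 and 13.2 RPKM, 1.25-fold and 1.37-fold. Of the C/D core proteins, Fbl, the methyltransferase fibrillarin, was at 9.65, 15.6, 10.4 and 17.0 RPKM. Nop56 was at 23.4, 54.9, 26.1 and 52.9 RPKM, Nop58 at 48.9, 95.9, 54.1 and 102 RPKM, and Snu13 at 11.1, 16.9, 11.5 and 16.2 RPKM, 1.53-fold and 1.41-fold. In all 8 both TGFB1 libraries lay above both Ctrl libraries.

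Pairs of miRNA made from one precursor had few reads. Mir29a and Mir29b-1 together had 9, 33, 8 and 27 reads, and the second copy of the family, Mir29b-2 and Mir29c, 1, 3, 3 and 11. Mir143 and Mir145a had 11, 1, 11 and 6 reads, and Mir322, Mir351 and Mir503 had 16, 3, 6 and 5.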
